A study of Mus musculus with 6 samples.

Results

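Decorin (Dcn) and 7 other proteoglycan genes of the extracellular matrix were followed in mouse cardiac co-cultures: biglycan (Bgn), asporin (Aspn), lumican (Lum), fibromodulin (Fmod), PRELP (Prelp), osteoglycin (Ogn) and versican (Vcan). These 8 genes were chosen by name, of 27179 genes in the bulk count table, and all 8 were matched in the bulk table and in both single-cell tables. Newborn C57BL/6 mice gave the immature cardiomyocytes (imCMs), which shared their dish with neonatal (NF) or adult (AF) cardiac fibroblasts. Bulk RNA of imCMs was read in 2 libraries per group, imCM-NF and imCM-AF. Cells were also sequenced in single nanowells of ICELL8 chips, with 1 chip labelled fibroblasts and 1 chip labelled cardiomyocytes, in which transcripts carry a unique molecular identifier (UMI). The wells carry names in the authors' report tables. On the fibroblast chip these are AF1 and AF2, NF1 and NF2, and AF0 and NF0, also with 2 numbers each. On the cardiomyocyte chip they are AFNCM and NFNCM, with 3 numbers each, and NCM0 with 2. The labels do not say what the 0 stands for, or whether the numbers are separate cultures. The labels give 1 mouse strain for the series and name no transgene or drug for these samples. By the study's methods, AF cultures started with a higher ratio of fibroblasts to imCMs than NF cultures, and isolated fibroblasts of both ages were passaged before co-culture. Each bulk group rests on 2 libraries that the labels do not tie to separate animals, so p-values measure only the spread between these libraries.

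Most of these proteins are small leucine-rich proteoglycans, whose curved protein core binds collagen fibrils and whose sugar chains space the fibrils. Dcn and Bgn carry chondroitin or dermatan sulfate chains and also bind growth factors such as TGF-beta, Aspn is their near relative, and Lum, Fmod and Prelp form another class and Ogn belongs to one more. Vcan is not small: it is a large proteoglycan that binds hyaluronan and fills the loose matrix of developing hearts. Cardiac fibroblasts are the main known source of Dcn and Lum in the heart.

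Bulk counts summed to between 9278909 and 12088577 per library, and 14041 genes passed an expression filter of more than 1 CPM (counts scaled to 1000000 per library) in at least 2 libraries. All 8 proteoglycan genes passed it. Libraries of a group differed by more than counting noise (chi-square per degree of freedom 9.12 in imCM-NF and 8.94 in imCM-AF). On the chips, 951 of 1063 and 1296 of 1419 wells were kept, namely those with 500 or more genes, with more than 50% of their read pairs aligned, and with a UMI sum no further than 2 SD from the average well. The median UMI total per kept well was 28923 in AF, 17156 in NF, 38627 in AF0, 32976 in NF0, 19709 in AFNCM, 18770 in NFNCM and 16044.5 in NCM0. The chips shared 269 well barcodes, which are set by chip design. Summed UMIs of 10 fibroblast marker genes ranged from 7052 to 11490 CPM in AF wells, 3618 to 4971 in NF wells, 6123 to 6387 in AF0 wells and 5786 to 6876 in NF0 wells. The 10 cardiomyocyte marker genes summed to 28750 to 38870 CPM in wells of the cardiomyocyte chip, so both chips matched their labels, but they also summed to 3172 to 3254 CPM in NF wells and 4190 to 4470 CPM in NF0 wells, against 117.5 to 931.8 CPM in AF wells and 164.2 to 334.9 CPM in AF0 wells.

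In bulk RNA, 2 of the 8 genes rose with adult fibroblasts (Prelp and Fmod) and 1 fell (Aspn). A call needed both an adjusted p below 0.05 (edgeR, quasi-likelihood test) and a log2 fold change beyond 0.58 in either direction. The 3 calls of 8 stand beside 11.1% of all 14041 tested genes called, 6.15% higher and 4.99% lower. The median log2 fold change of the 8 genes was -0.28, against 0.0011 over all tested genes. The other 5 genes (Dcn, Bgn, Lum, Ogn and Vcan) had values between -0.52 and -0.10, a direction that turned to between 0.25 and 0.67 when libraries were scaled to the summed fibroblast markers, which were themselves lower in imCM-AF. That scaling raised the median of all tested genes from 0.0011 to 0.77, above each of these 5 values, and 66.7% of all genes were then called, with 3 of the 8 genes higher (Ogn added) and 1 lower.

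**Figure D1:**
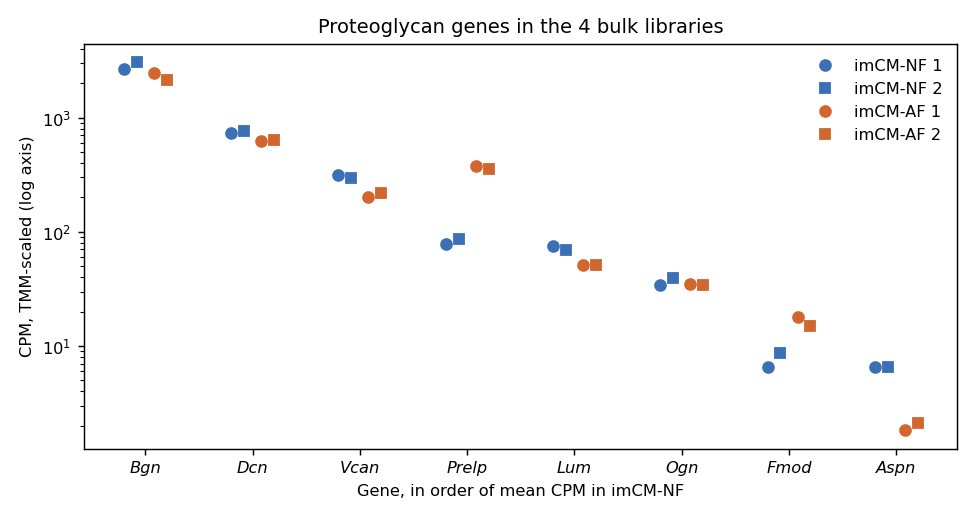
CPM values of the 8 proteoglycan genes in the bulk libraries, on a log axis, with 1 point per library (blue imCM-NF, orange imCM-AF; circles replicate 1, squares replicate 2). Prelp lies between 78.0 and 87.1 CPM in imCM-NF and between 355.9 and 374.9 CPM in imCM-AF, while the points of Ogn lie within 34.4 to 39.2 CPM in both groups.

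Because Prelp and Fmod rose and Aspn fell, the sequences just before a transcript start of each are shown. For Prelp this start lies inside the gene interval given below, so the window is not at the outer end of that interval. They are 250 bases each, taken from RefSeq promoters of GRCm38.p6, on the strand of the gene and 5' to 3', and capitals mark matches on either strand to the TATA box TATAAA, the CCAAT box CCAAT, the GC box GGGCGG or the AP-1 motif TGANTCA. Prelp lies at chr1:133921402-133921651 on the minus strand, Fmod at chr1:134037004-134037253 on the plus strand and Aspn at chr13:49544193-49544442 on the plus strand.
Prelp: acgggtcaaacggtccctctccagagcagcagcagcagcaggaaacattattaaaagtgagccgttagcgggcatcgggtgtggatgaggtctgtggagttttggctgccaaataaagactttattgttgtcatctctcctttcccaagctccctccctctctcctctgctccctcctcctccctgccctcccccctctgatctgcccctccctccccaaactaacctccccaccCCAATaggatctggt
Fmod: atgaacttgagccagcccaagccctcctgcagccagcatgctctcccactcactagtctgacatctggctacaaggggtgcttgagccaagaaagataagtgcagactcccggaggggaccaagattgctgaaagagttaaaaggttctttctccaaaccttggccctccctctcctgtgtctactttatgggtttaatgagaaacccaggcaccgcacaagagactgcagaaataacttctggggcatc
Aspn: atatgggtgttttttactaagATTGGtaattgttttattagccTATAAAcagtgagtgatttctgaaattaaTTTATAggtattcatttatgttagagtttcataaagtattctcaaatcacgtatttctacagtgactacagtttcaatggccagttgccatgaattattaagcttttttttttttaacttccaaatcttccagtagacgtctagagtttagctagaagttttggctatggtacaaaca
The Prelp window held 1 CCAAT match, 15 bases before the start, and the Fmod window held none of the 4 motifs. The Aspn window held 2 TATAAA matches, 207 and 178 bases before the start, and 1 CCAAT match at 229 bases, and these do not overlap. Among 32851 RefSeq promoters, windows of the same length held TATAAA in 12.4%, CCAAT in 33.8%, GGGCGG in 32.7% and TGANTCA in 6.75%. G and C made up 55.6% of the Prelp window, 51.2% of the Fmod window and 30.0% of the Aspn window, beside a median of 52.4% over all windows. Promoters of 6 of the 8 genes were matched. Those of Dcn and Lum were not.

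Prelp, which helps to anchor collagen to heparan sulfate chains of basement membranes, showed the largest bulk change of the 8 genes. The gene (Entrez 116847, GRCm38 chromosome 1, 133910304 to 133930102, minus strand) had 78.0 and 87.1 CPM in the imCM-NF libraries and 374.9 and 355.9 CPM in the imCM-AF libraries. The groups lay far apart, and the log2 fold change was 2.14 ± 0.11 (SE, n = 2 per group, edgeR adjusted p 1.06e-09). Of its 3615 exon bases, 350 are also exon of the antisense gene Gm15851. The kit used for bulk libraries does not keep strand, so reads there cannot be assigned to either gene.

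Fmod, which binds the same collagens as Lum and shapes fibril growth, lies 107 kb from Prelp (Entrez 14264, chromosome 1, 134037254 to 134048280, plus strand). It had 6.58 and 8.76 CPM with NFs against 17.9 and 15.1 CPM with AFs. Both imCM-AF libraries lay above both imCM-NF libraries, with a log2 fold change of 1.08 ± 0.18 (SE, edgeR adjusted p 0.000282). These values rest on 59 to 196 counts per library.

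Aspn, a relative of Dcn that binds collagen and TGF-beta, moved the other way (Entrez 66695, chromosome 13, 49544443 to 49567565, plus strand). It had 6.58 and 6.53 CPM with NFs against 1.83 and 2.10 CPM with AFs, from 59 and 79 counts and from 20 and 25 counts. The groups did not overlap, and the log2 fold change was -1.73 ± 0.26 (SE, edgeR adjusted p 0.000118). Ogn, 40.4 kb away on the same strand and known for its role in collagen fibril assembly, lay beside it without a call (Entrez 18295, chromosome 13, 49608015 to 49624501). The imCM-NF libraries held 34.6 and 39.2 CPM of Ogn, and the imCM-AF libraries 34.7 and 34.4 CPM. These overlap, with a log2 fold change of -0.10 ± 0.11 (SE, edgeR adjusted p 0.518) that was 0.67 relative to fibroblast markers, a scaling under which Ogn was called (edgeR adjusted p 0.0128). Both genes lie inside the protein-coding gene Cenpp of the opposite strand, which shares 7 exon bases with Aspn and 0 with Ogn. Cenpp had 3.46 and 3.63 CPM with NFs against 3.47 and 2.60 CPM with AFs.

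Vcan (Entrez 13003, chromosome 13, 89655309 to 89743027, minus strand) had 312.5 and 294.0 CPM with NFs against 202.6 and 220.4 CPM with AFs. The log2 fold change of -0.52 ± 0.10 (SE, edgeR adjusted p 0.0015) passed the p threshold but not the fold threshold. Lum (Entrez 17022, chromosome 10, 97565501 to 97572703, plus strand), a collagen-spacing proteoglycan, had 74.6 and 68.7 CPM with NFs against 51.0 and 51.5 CPM with AFs. Its log2 fold change of -0.48 ± 0.09 (SE, edgeR adjusted p 0.00137) likewise passed only the p threshold. In both genes the imCM-AF libraries lay below the imCM-NF libraries, and relative to fibroblast markers the log2 values were 0.25 for Vcan and 0.28 for Lum.

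Dcn, which the study also silenced in other experiments, came next (Entrez 13179, chromosome 10, 97479500 to 97518163, plus strand, 47.3 kb before Lum). It had 732.2 and 762.4 CPM with NFs against 627.7 and 633.3 CPM with AFs. The imCM-AF values were the lower ones, but the log2 fold change of -0.25 ± 0.12 (SE) did not pass the test (edgeR adjusted p 0.144), and relative to fibroblast markers it was 0.52. Bgn (Entrez 12111, chromosome X, 73483601 to 73495936, plus strand), the closest relative of Dcn among these genes, had 2647 and 3044 CPM with NFs against 2462 and 2121 CPM with AFs. Its log2 fold change was -0.31 ± 0.17 (SE, edgeR adjusted p 0.187), with a spread within each group of 280.3 CPM (SD, imCM-NF) and 240.9 CPM (SD, imCM-AF), and relative to fibroblast markers it was 0.45.

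**Figure D2:**
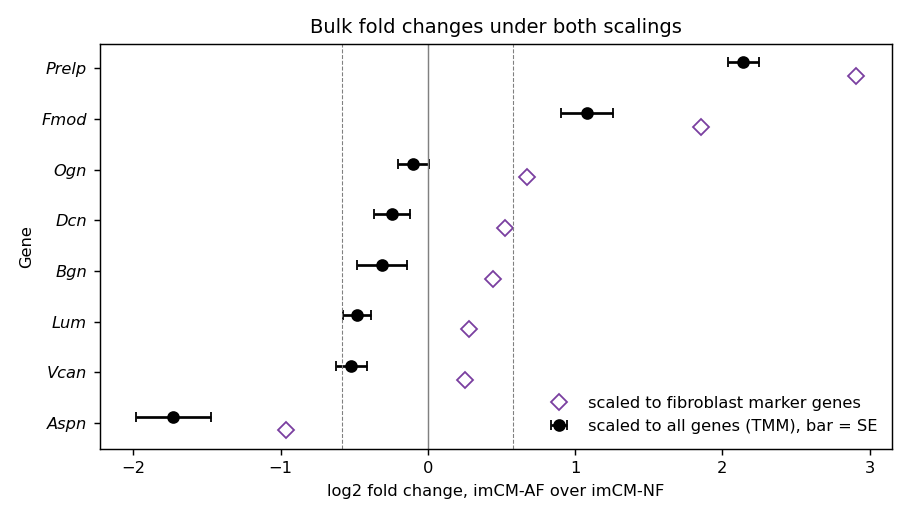
Bulk log2 fold changes of the 8 proteoglycan genes, imCM-AF over imCM-NF. Black points with SE bars are scaled to all genes and open diamonds are scaled to the summed fibroblast markers, and the dashed lines stand at -0.58 and 0.58. Prelp and Fmod are above 0 and Aspn is below 0 under both scalings, while Dcn, Bgn, Lum, Ogn and Vcan are below 0 under the first and above 0 under the second.

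Per kilobase of exon (RPKM), Bgn stood first of the 8 genes in both groups, with means of 466.5 (NFs) and 375.7 (AFs), followed by Dcn at 128.0 and 108.0. The length of a gene was the union of all its GENCODE exons, 5838 bases for Dcn and 3615 for Prelp, while reads were counted on RefSeq genes. Distances between genes therefore depend on these lengths, and lengths of single transcripts were not tried. Lum (29.3), Prelp (22.8) and Vcan (21.0) were close together in imCM-NF, where the Prelp and Vcan libraries overlapped. In imCM-AF, Prelp (101.1) stood just below Dcn by this measure, whose 2 libraries (107.5 and 108.5) were above those of Prelp (103.7 and 98.4), and well above Lum (20.9) and Vcan (14.6). By CPM, which uses no length, the imCM-AF means lay further apart, at 630.5 for Dcn and 365.4 for Prelp. Ogn stood at 14.4 in imCM-NF and 13.5 in imCM-AF. The lowest pair changed order, with Aspn at 2.78 and Fmod at 2.32 in imCM-NF and 0.834 and 4.99 in imCM-AF.

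Summed fibroblast markers were 16323 and 18184 CPM with NFs against 11514 and 9025 CPM with AFs, and 7 of the 10 were called lower, with Thy1, Fbln2 and Loxl1 changed most (log2 fold changes -1.70, -1.01 and -0.94). Cardiomyocyte markers summed to 40232 and 28943 CPM with NFs against 35109 and 38529 CPM with AFs. In bulk RNA, fewer fibroblasts, less RNA per fibroblast and other levels of these markers in AFs than in NFs cannot be told apart. In AF against NF wells, 6 of the 10 markers were higher and 1 lower. Col1a1 had 3450 CPM in AF and 1130 CPM in NF wells, and Thy1 had 65.0 and 296 CPM. Values relative to fibroblast markers rest on this sum, and the part of such differences was not tested. Of the cardiomyocyte markers, 1 of 10 was called higher and 1 lower. Other marker lists held 4 of 8 endothelial, 2 of 8 macrophage (0 by DESeq2, with 4 at an unadjusted p under 0.05 in edgeR), 2 of 8 smooth muscle and 1 of 5 tested epicardial genes called lower, and 1 smooth muscle gene called higher. The part of these cell types in the values of the 8 genes was not tested.

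Partner genes of these proteoglycans were compared in the same bulk fit. Of 99 tested, 2 were called higher and 21 lower (23.2%, beside 11.1% of all genes). Scaled to fibroblast markers, the split became 36 higher and 2 lower (38.4%). That stands beside 66.7% of all genes under this scaling, with 9332 higher and 39 lower. Of 13 fibril collagen genes, 11 were called lower and 0 higher (median log2 fold change -0.70), led by Col2a1 (-2.39 ± 0.35, edgeR adjusted p 0.00012), Col14a1 (-1.72 ± 0.12, edgeR adjusted p 3.75e-08) and Col5a1 (-0.93 ± 0.15, edgeR adjusted p 0.000326). Of 10 tested genes for hyaluronan and its partners, 3 were called lower: Hapln1, a link protein that fixes Vcan to hyaluronan (-1.43 ± 0.29), and the fibulins Fbln2 (-1.01 ± 0.16) and Fbln1 (-0.73 ± 0.10), which bind Vcan. For chain synthesis, 1 of 21 chondroitin and dermatan genes (Csgalnact1, which starts the chain, -0.76 ± 0.18) and 1 of 5 keratan genes (the sulfotransferase Chst2, -0.79 ± 0.18) were called lower. The collagen and fibroblast marker lists share Col1a1, Col1a2 and Col3a1, and Fbln2 is on 2 lists. All these values are relative to all genes, and the lower fibroblast marker sum in imCM-AF stands beside them, with its part not tested.

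Among 12 protease genes, the stromelysin Mmp3, which can cleave Dcn, rose by 1.39 ± 0.11 on the log2 scale (edgeR adjusted p 1.57e-07), from 52.1 and 46.4 CPM to 140.7 and 117.7 CPM. The membrane protease Mmp14 (-0.92 ± 0.12) and the gelatinase Mmp2 (-0.62 ± 0.12) fell. Of 16 tested genes for cell surface and basement membrane proteoglycans, Gpc6 (-0.97 ± 0.11), Col18a1 (-0.93 ± 0.10) and Sdc1 (-0.84 ± 0.11) fell. Agrin (Agrn), named after its value was seen as the 1 gene of that list that rose, changed by 0.75 ± 0.10. None of 12 receptors of Dcn and Bgn and none of 6 TGF-beta ligands and receptors was called by edgeR, DESeq2 or limma-voom, where 6 and 3 of them had an unadjusted p under 0.05 in edgeR. Of 4 tested further small leucine-rich genes, 0 were called by these tools. Podn, the 1 of them with an unadjusted p under 0.05 in edgeR, was also under 0.05 after adjustment but within the fold limit. It had 33.2 and 29.1 CPM with NFs against 39.0 and 38.1 CPM with AFs (log2 fold change 0.31 ± 0.11). Ecm2, Chadl and Tsku had log2 fold changes of -0.60 ± 0.30, -0.17 ± 0.27 and 0.02 ± 0.11. Kera, the keratan sulfate proteoglycan of the cornea next to Lum, had 0 counts in all 4 libraries, and 6 more genes of that list missed the filter.

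Dcn was next compared in single wells of the fibroblast chip. Summed over kept wells, Dcn stood at 1189 CPM in AF1 and 1388 CPM in AF2, against 62.0 CPM in NF1 and 140.4 CPM in NF2. Both AF well types were above both NF well types, and the ratio of the sums was 12.9 (95% counting interval 11.9 to 13.9, from 11263 and 708 UMIs). A kept well held at least 1 Dcn UMI in 93.6% of AF wells and 40.2% of NF wells, and in 79.8% and 27.4% after each well was thinned to 5000 UMIs (208 and 223 wells deep enough). Within AF wells the level was uneven: in AF1 the lower quartile, median and upper quartile were 2.11, 7.51 and 15.3 UMIs per 10000, and the highest well had 115. The chips hold 1 library of each kind, so no test between well types was made, and all intervals for wells cover counting error only.

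Of the 8 genes, 5 were higher in AF than in NF wells by a rule that every AF type lies above every NF type and that the summed values differ more than 2-fold (Dcn, Lum, Vcan, Ogn and Prelp), beside 13.0% of 16529 genes with a UMI in at least 10 wells. Lum had 101.3 and 89.2 CPM in AF1 and AF2 and 7.55 and 13.2 CPM in NF1 and NF2, a ratio of 9.31 (lower end of its interval 7.33). Vcan had 210.7 and 317.4 CPM against 62.3 and 114.6 CPM, a ratio of 2.99 (2.73 to 3.27). Both follow Dcn in direction, with smaller ratios.

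Ogn had 78.4 and 56.8 CPM in AF wells and 38.3 and 18.2 CPM in NF wells (ratio 2.38, 2.03 to 2.80), and Prelp had 34.9 and 20.1 CPM against 15.6 and 10.6 CPM (ratio 2.11, 1.66 to 2.71). Prelp was sparse, with a UMI in 18.7% of AF and 9.77% of NF wells. Bgn was present in 97.3% of AF and 90.6% of NF wells, with 696.9 and 1001 CPM in AF wells and 416.2 and 591.7 CPM in NF wells. Its ratio of 1.68 (1.61 to 1.75) was under the 2-fold limit. Aspn and Fmod were close to absent: Aspn had 4 UMIs over AF and 18 over NF wells, which made it the 1 gene lower by the rule (background 7.24%), and Fmod had 6 and 4 UMIs (ratio 1.22, 0.288 to 5.86). For Aspn, keeping all wells with a UMI turned the ratio of AF over NF from 0.18 to 2.59. Ogn lost its call as a mean over wells (1.25) and Prelp in wells where fibroblast markers prevailed (1.89).

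The AF over NF differences stand beside differences in other RNA. Fibroblast markers summed higher in AF wells, with 6 of 10 higher and Thy1 lower, and 9 of 10 cardiomyocyte and 6 of 8 macrophage markers were lower in AF wells by the same rule. Macrophage markers summed to 41.3 to 69.8 CPM in AF and 206.5 to 248.0 CPM in NF wells. Per fibroblast marker UMI, the AF over NF ratio was 6.02 for Dcn, 4.35 for Lum and 1.395 for Vcan. It was 1.11 for Ogn, 0.986 for Prelp and 0.784 for Bgn. Dcn and Lum were the 2 genes of 8 still more than 2-fold higher, so Vcan, Ogn and Prelp lost their calls. Within wells whose fibroblast marker sum exceeded their cardiomyocyte marker sum, Dcn stood at 1302 CPM in AF (212 wells) and 94.9 CPM in NF (215 wells). The ratio over such wells was 13.72, as large as over all kept wells. Wells with both kinds of marker were counted as they are, since no doublet caller was run on wells that had been picked by image.

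**Figure D3:**
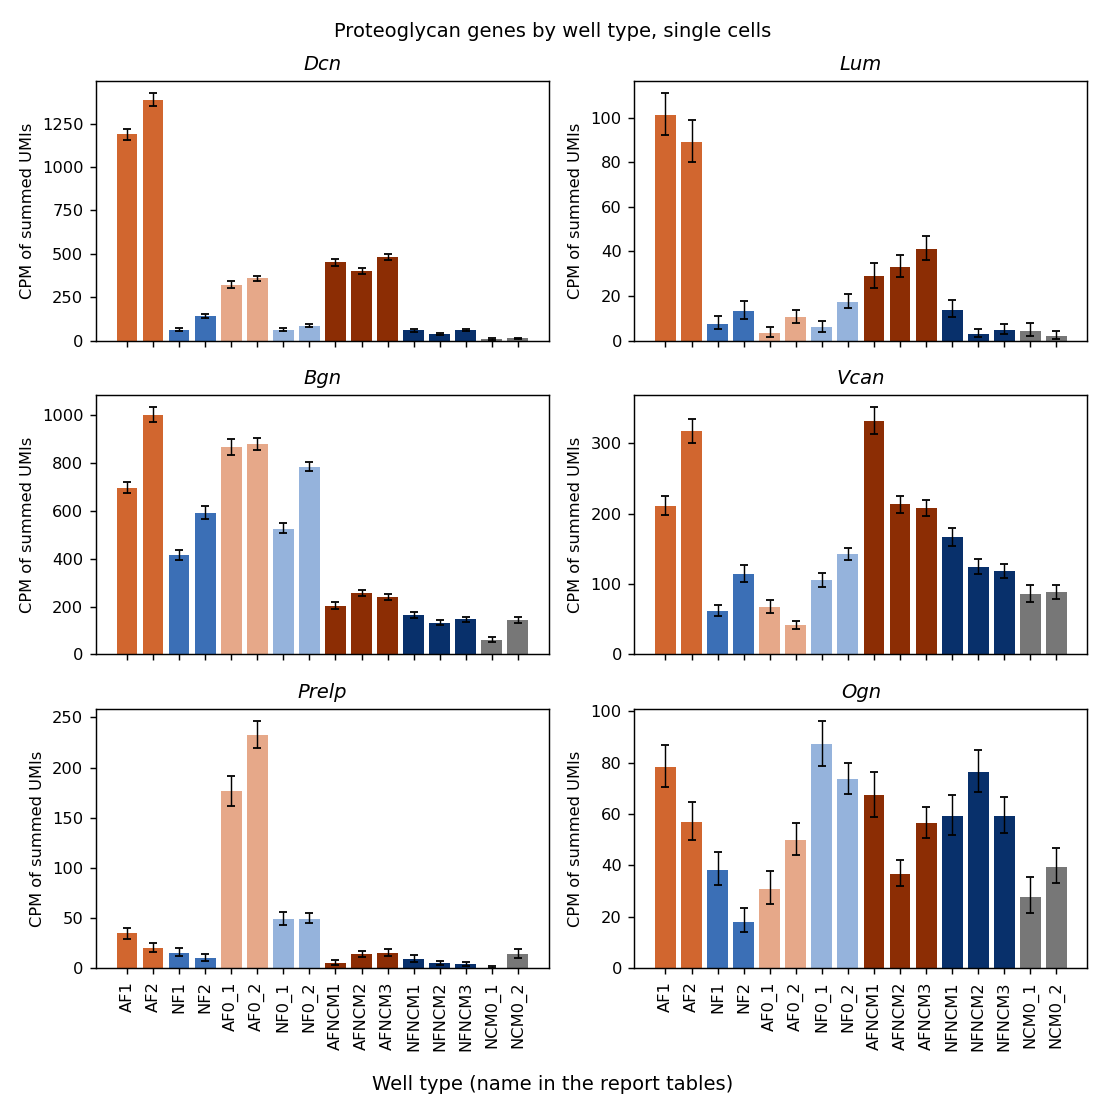
CPM of summed UMIs of 6 proteoglycan genes in each well type of both chips, with 95% Poisson intervals that cover counting error only. Dcn and Lum are highest in AF1 and AF2, Prelp is highest in AF0_1 and AF0_2, and Bgn is lower on the cardiomyocyte chip, at 62.2 to 256.5 CPM, than on the fibroblast chip, at 416.2 to 1001 CPM.

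The AF0 and NF0 wells, for which the labels give no culture condition, showed a different order. Prelp stood at 176.5 and 232.9 CPM in AF0 and at 49.6 and 49.7 CPM in NF0 wells, a ratio of 4.26 (3.89 to 4.68), and 93.5% of AF0 wells had a UMI of it against 30.1% of NF0 wells (53.3% and 13.9% after thinning). Over all wells of a kind, Prelp stood at 211.6 CPM in AF0 and 27.9 CPM in AF, whereas Dcn stood at 344.5 CPM in AF0 and 1283 CPM in AF. Dcn stood at 321.6 and 358.3 CPM in AF0 and 62.9 and 86.7 CPM in NF0 wells, a ratio of 4.43 (4.12 to 4.77). Fmod was at 9.49 and 4.78 CPM in AF0 and 3.28 and 1.98 CPM in NF0 wells, a ratio of 2.66 (1.67 to 4.30) from 55 and 30 UMIs. By the rule above 3 of the 8 genes were higher in AF0 wells (Dcn, Prelp and Fmod), beside 12.4% of genes. With all wells that had a UMI, Fmod was at 1.69 and lost its call.

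Aspn and Vcan were the 2 genes lower in AF0 than in NF0 wells, beside 9.94% of genes. Aspn had 0.316 and 1.91 CPM in AF0 and 33.0 and 16.2 CPM in NF0 wells, a ratio of 0.0582 (0.0287 to 0.106). Vcan had 67.1 and 41.9 CPM in AF0 and 105.2 and 142.1 CPM in NF0 wells, a ratio of 0.40 (0.359 to 0.446). Ogn was also lower (31.0 and 49.9 against 87.1 and 73.6 CPM) but within the 2-fold limit, and Lum (3.48 and 10.7 against 5.89 and 17.5 CPM) overlapped between AF0 and NF0. Bgn differed least, at 866.3 and 878.3 CPM in AF0 and 525.9 and 784.6 CPM in NF0 wells (ratio 1.27, 1.23 to 1.31).

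In AF0 wells other cell type markers moved as well. The 6 epicardial or mesothelial markers summed to 246.4 to 293.9 CPM in AF0 wells, against 22.7 to 39.8 CPM in NF0 and 9.48 to 22.5 CPM in AF wells, with 3 of 5 tested higher in AF0 than in NF0 (Upk3b, Msln and Upk1b) and Krt19 lower (4.17 against 9.37 CPM), while Wt1 and Krt8 were at 0 in AF0_1. The 8 endothelial markers summed to 420.4 to 650.2 CPM in AF0 and 106.3 to 121.5 CPM in NF0 wells, with 5 of 8 higher. All 10 cardiomyocyte markers and 6 of 8 macrophage markers were lower in AF0 wells. The part of these cells in the values of Prelp, Dcn and the other genes was not tested.

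**Figure D4:**
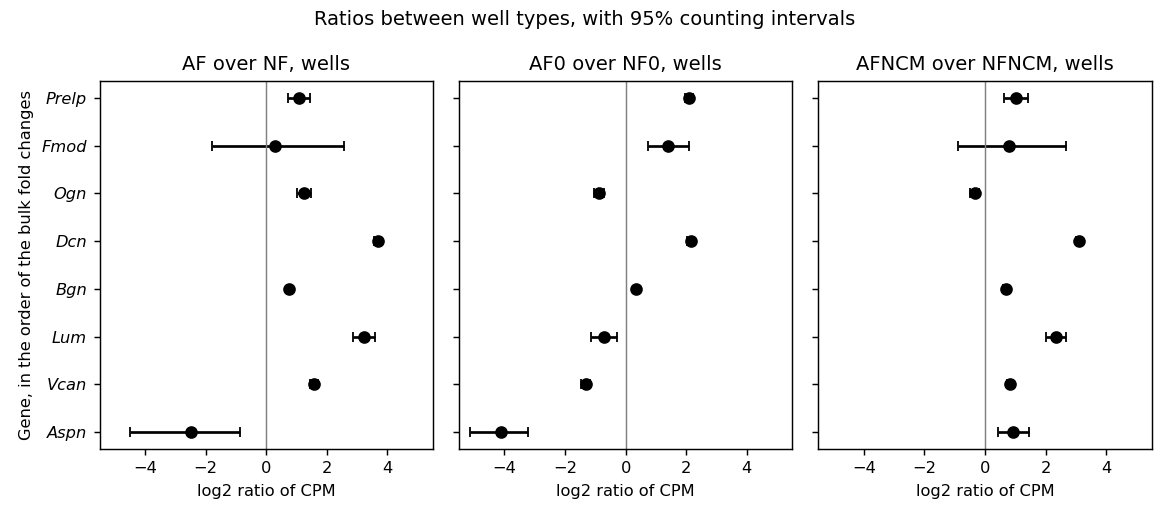
Ratios of summed CPM on a log2 axis for the 8 proteoglycan genes, with 95% counting intervals, for AF over NF, AF0 over NF0 and AFNCM over NFNCM wells. Dcn is above 0 in all 3 panels (ratios 12.9, 4.43 and 8.59), and Vcan and Ogn are above 0 in the first panel and below 0 in the middle one.

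On the cardiomyocyte chip, Dcn and Lum were again higher with AFs. Dcn stood at 450.4, 400.4 and 481.9 CPM in the AFNCM types, at 58.5, 35.9 and 61.2 CPM in the NFNCM types and at 9.43 and 12.6 CPM in the NCM0 types. The 3 kinds did not overlap, and the AFNCM over NFNCM ratio was 8.59 (7.94 to 9.31). Lum stood at 28.9, 33.2 and 41.2 CPM against 13.9, 3.12 and 4.76 CPM, a ratio of 5.06 (4.05 to 6.39), and at 4.29 and 2.01 CPM in NCM0. These were the 2 genes of 8 higher by the rule, beside 6.59% of 16444 genes, and 0 of 8 were lower, beside 1.58%. Relative to fibroblast marker UMIs the ratios were 4.32 for Dcn and 2.55 for Lum, and Ogn became lower by the rule (0.399).

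By CPM, Vcan and Bgn were higher in every AFNCM type than in every NFNCM type but within 2-fold, and relative to fibroblast marker UMIs the ratios turned to 0.892 for Vcan and 0.809 for Bgn. Vcan had 331.6, 213.4 and 207.7 CPM in AFNCM and 166.5, 124.6 and 117.9 CPM in NFNCM wells (ratio 1.77, 1.67 to 1.88), and Bgn had 202.8, 256.5 and 239.2 CPM against 164.7, 132.6 and 146.9 CPM (ratio 1.61, 1.52 to 1.70). The types overlapped for Ogn (ratio 0.792), Prelp (2.02), Aspn (1.92) and Fmod (1.73, from 10 and 5 UMIs). Prelp, the gene with the largest bulk rise, had 12.5 CPM in AFNCM and 6.20 CPM in NFNCM wells.

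Part of this RNA lay in wells where fibroblast markers prevailed. Wells whose fibroblast marker sum exceeded their cardiomyocyte marker sum numbered 86 of 515 in AFNCM, 54 of 523 in NFNCM and 7 of 258 in NCM0, and 46, 45 and 14 wells had sums within 2-fold of each other. These wells held 37.7% of the Dcn UMIs of AFNCM and 34.1% of those of NFNCM. In the wells where cardiomyocyte markers prevailed, Dcn still stood at 336.6 CPM in AFNCM (326.4 to 347.0, 427 wells), 40.0 CPM in NFNCM (36.4 to 43.9, 468 wells) and 11.2 CPM in NCM0 (8.57 to 14.3, 251 wells). A Dcn UMI was found in 61.6%, 12.4% and 11.2% of them, at median depths of 18263, 17588 and 15843 UMIs. Fibroblast markers still summed to 1239 CPM in these wells of AFNCM, 631.3 CPM in those of NFNCM and 889.7 CPM in those of NCM0.

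Free RNA and fibroblast RNA in the same well were not told apart from expression by the cardiomyocyte. Of the Vcan UMIs of AFNCM, 85.3% lay in cardiomyocyte-marker wells, which held 12324162 of all 15086505 UMIs, and there Vcan stood at 249.8 CPM, above the 192.2 CPM of the fibroblast-marker wells. In NFNCM the cardiomyocyte-marker wells had Vcan at 136.5 CPM and in NCM0 at 79.5 CPM.

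**Figure D5:**
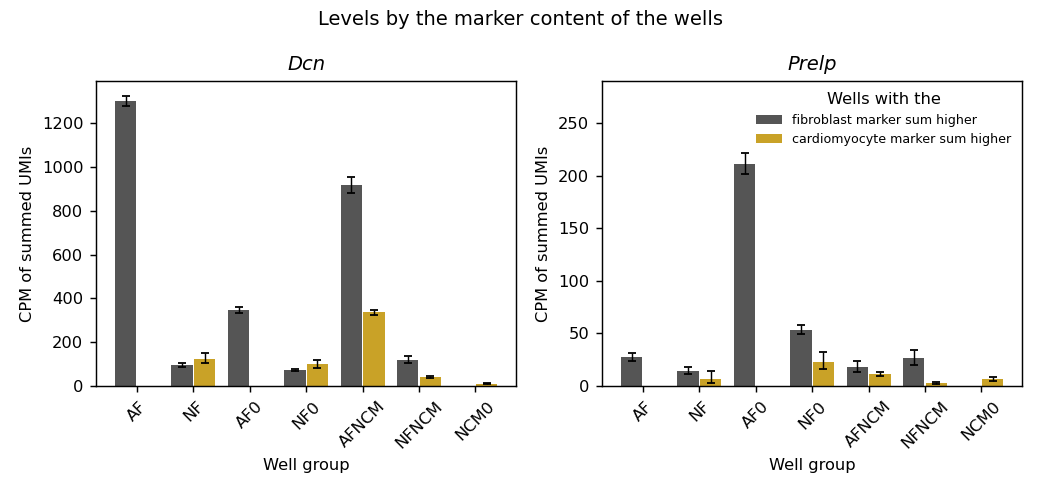
CPM of Dcn and Prelp in wells where fibroblast markers (grey) or cardiomyocyte markers (yellow) summed higher, with 95% Poisson intervals, for groups with at least 10 such wells. Dcn in cardiomyocyte-marker wells is 336.6 CPM in AFNCM, 40.0 CPM in NFNCM and 11.2 CPM in NCM0, and Prelp is highest in AF0 fibroblast-marker wells, at 211.3 CPM.

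Set side by side, the bulk and single-cell values of Dcn, Lum, Vcan and Bgn had opposite signs by CPM, though none of these was called in bulk. Aspn, called lower in bulk (log2 fold change -1.73), had an AFNCM over NFNCM ratio of 1.92, but its well types overlapped. In bulk, imCM-AF against imCM-NF gave log2 fold changes of -0.25 for Dcn, -0.48 for Lum, -0.52 for Vcan and -0.31 for Bgn. These 4 turn positive when scaled to fibroblast markers, but that scaling lifted genes in general. The median of all tested genes then was 0.77, above each of the 4. In AFNCM against NFNCM wells the CPM ratios were 8.59, 5.06, 1.77 and 1.61, and relative to fibroblast marker UMIs they were 4.32, 2.55, 0.892 and 0.809. No test compared the assays. In AFNCM wells, 4 of 10 fibroblast, 6 of 8 endothelial and 3 of 8 smooth muscle and pericyte markers were higher than in NFNCM wells by the same rule, and the part of those cells was not tested. The labels describe separation of cells by centrifugation for the bulk libraries, and the study's methods describe sorting.

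Partner genes were described in the wells by the same rule. Of all tested genes, this rule found 13.0% higher and 7.24% lower in AF than in NF wells. The shares were 12.4% and 9.94% in AF0 against NF0, and 6.59% and 1.58% in AFNCM against NFNCM wells. Of 12 protease genes, 6 were higher and 1 lower in AF than in NF wells, among the former Mmp3, at 411 CPM in AF and 19.5 CPM in NF, 162 CPM in AF0 and 2.55 CPM in NF0, and 119 CPM in AFNCM and 3.52 CPM in NFNCM wells. Mmp3 thus was higher in AF, AF0 and AFNCM wells than in NF, NF0 and NFNCM wells, and higher in bulk. Agrn was likewise higher in bulk and, by the rule, in AFNCM wells. Sdc1, Col18a1, Fbln1 and Chst2 were called lower in bulk but were higher in AFNCM than in NFNCM wells by the rule. Some fibril collagens did so too: 11 of 13 were called lower in bulk, while Col1a1, Col1a2, Col3a1, Col5a3 and Col6a2 were higher in AFNCM wells. Of 13 fibril collagens, 5 were higher and 1 lower in AF than in NF wells, 0 higher and 3 lower in AF0 than in NF0 wells, and 5 higher and 0 lower in AFNCM than in NFNCM wells. Col14a1 was at 1.79 CPM in AF0 and 79.1 CPM in NF0 wells, with 69.0 CPM in AF and 46.8 CPM in NF wells.

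The counts that follow stand beside the same shares of all genes. Those were 13.0% higher and 7.24% lower in AF, 12.4% and 9.94% in AF0, and 6.59% and 1.58% in AFNCM wells. Of 12 tested genes of hyaluronan and its partners, 3 were higher and 2 lower in AF than in NF wells, and Hapln1 was lower (5.24 against 22.8 CPM). In AF0 wells 2 of these 12 were higher and 3 lower, and in AFNCM wells 1 of 9 was higher and 0 lower. Of 12 receptors, 3 were higher and 4 lower in AF, 3 higher and 1 lower in AF0, and 3 higher and 0 lower in AFNCM wells. Of 6 TGF-beta genes, 2 were higher in AF, 2 in AF0 and 0 in AFNCM wells, with 0 lower in each. Of 21 tested chondroitin and dermatan genes, 2 were higher and 2 lower in AF, 4 higher and 1 lower in AF0, and 2 higher and 0 lower in AFNCM wells, with Csgalnact1 at 13.1 CPM in AF and 2.67 CPM in NF wells. Among the further small leucine-rich genes, Tsku stood at 126 CPM in AF0 and 29.0 CPM in NF0 wells. Podn stood at 8.82 CPM in AFNCM, 9.49 CPM in NFNCM and 8.24 CPM in NCM0 wells against 0.281 to 1.48 CPM in the 4 groups of the fibroblast chip.

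Across single wells of the fibroblast chip, correlations between the 8 genes are given as a description only. A UMI was seen in 4.73% of wells for Fmod, 7.78% for Aspn and 15.6% for Lum, and in counts this sparse a weak correlation says little about how genes vary together. The mean Pearson correlation of ln values within the 8 well types, a description over 951 wells that share chip and depth, was highest for Dcn and Lum (0.14, from -0.16 to 0.28 over types) and for Bgn and Prelp (0.12, from -0.024 to 0.23). Of 6205 genes with a UMI in at least 20% of wells, those most like Dcn were Clu (0.229), Selp (0.206), Cp (0.186), Ctla2a (0.177) and Selenop (0.168), and each of these had at least 1 well type with a value below 0.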

How the data were processed

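Bulk RNA-Seq and single-cell RNA-Seq of mouse cardiac co-cultures were analysed from the deposited files. The authors deposited raw counts per gene for the bulk libraries and UMI counts per gene and well for the chips. Per the labels and the study's methods, bulk reads were aligned to mm10 by subread and counted on RefSeq genes by featureCounts. Chip reads were aligned by STAR 2.5.2b and counted by featureCounts of Subread 1.4.6-p1. The authors also deposited a table of their own fold changes, which was not used. Well names were read from the deposited report tables.

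Bulk libraries were grouped by the label of the co-cultured fibroblasts. Counts were compared with edgeR 4.0.16 (R 4.3.3, TMM scaling, group as the only term, quasi-likelihood test, Benjamini-Hochberg adjustment over 14041 genes), in place of the study's limma, at the study's thresholds. The study's RPKM filter was replaced by CPM over 1 in at least 2 libraries. SE is the log2 fold change divided by the square root of F. The procedure was tested on simulated data. DESeq2 1.42.0 and limma-voom (limma 3.58.1) were alternatives. Entrez identifiers were matched to RefSeq symbols (GRCm38.p6, the assembly of mm10).

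Wells were summed by type after mitochondrial and spike-in genes were left out. Intervals are exact Poisson, exact binomial or exact conditional (ratios) at 95%, cover counting error only, and a group at under 3 UMIs was set to 3 for ratios in counts of genes. Control wells were left out, and negative control wells held a median of 145 and 217 UMIs. The genes and partner lists were chosen with earlier results of these data known. Named were the 8 genes, at most 3 called genes of each list with the largest change, all tested further small leucine-rich genes, and the 5 genes most like Dcn over wells. Other partner genes in the well comparisons were named after their values were seen.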

Additional observations from a re-analysis of the deposited data

Results flagged for a closer look

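Several genes had opposite directions in AF against NF comparisons that differ in assay or in the kind of well, a difference that was not tested. In bulk, the log2 fold changes were -0.25 for Dcn, -0.31 for Bgn, -0.48 for Lum and -0.52 for Vcan. For these genes every AFNCM well type was higher than every NFNCM well type, with ratios of 8.59 for Dcn, 1.61 for Bgn, 5.06 for Lum and 1.77 for Vcan. None of these genes was called in bulk, and Dcn and Bgn did not pass the p threshold (edgeR adjusted p 0.144 and 0.187). They were flagged because their libraries and their well types separate by group, and the share of all genes that do so is not given. The separation alone is therefore not read as a result. Scaled to fibroblast markers, the bulk values of all 4 genes turn positive but stay below the median of all tested genes under that scaling (0.77). Relative to fibroblast marker UMIs, the well ratios become 4.32 for Dcn, 0.809 for Bgn, 2.55 for Lum and 0.892 for Vcan. In single fibroblasts, Vcan and Ogn were higher in both AF than in both NF well types but lower in both AF0 than in both NF0 well types, with AF0 over NF0 ratios of 0.40 for Vcan and 0.543 for Ogn. Groups of 4 or more samples were not at hand, so no sample was tested as standing apart from its group.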

How the results depend on the processing

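The 3 calls among the 8 proteoglycan genes (Prelp, Fmod and Aspn) were also 3 under DESeq2, limma-voom, RLE factors, library totals, both other filters, a log2 threshold of 1 and each library left out (3 to 3), and 5 with adjusted p alone, when Lum (-0.48) and Vcan (-0.52) were added. Of 99 tested partner genes, 23 were called, 44 with adjusted p alone, 5 with a log2 threshold of 1, and 14 to 33 with a library left out, the 14 without imCM-AF replicate 2. Scaled to fibroblast markers, the log2 fold changes turned to 0.52 for Dcn, 0.45 for Bgn, 0.28 for Lum, 0.67 for Ogn, 0.25 for Vcan and 0.48 for the median. The median of all tested genes then was 0.77. Ogn passed both thresholds under this scaling (edgeR adjusted p 0.0128). Then 4 of the 8 and 38 partner genes (38.4%) were called, beside 66.7% of all tested genes. These counts were added after the data were seen. With a library left out, Ogn ranged from -0.183 to 0.006, the latter without imCM-NF replicate 2. With the replicate block, 3 proteoglycan and 20 partner genes were called, and no call among the 8 genes changed. The replicate numbers are not stated to pair the libraries, and same-numbered libraries deviated with a correlation of -0.13 across genes. A crossed block, added after the data were seen, gave 3 and 24.

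In single cells, the 5 genes higher in AF than in NF wells became 2 relative to fibroblast marker UMIs and 3 as thinned shares of wells, and the 2 genes lower in AF0 wells became 1 as thinned shares. With all wells, Fmod lost its call in AF0 wells (1.69) and Lum became lower (0.439). As a mean over wells, Ogn lost its call in AF wells (1.25) and became lower in AF0 wells (0.437). Relative to fibroblast markers, Ogn became lower in AFNCM wells (0.399), and Vcan (0.892) and Bgn (0.809) turned below 1 there. Prelp lost its call in AF wells by marker identity (1.89). AF over NF turned for Aspn to 2.59 with all wells and 1.07 as thinned shares, and for Prelp to 0.986 relative to fibroblast markers. The cause of these moves was not tested. Depth limits Aspn and Fmod, which rest on few UMIs in most well types.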
